A study of Mus musculus with 4 samples.

Results

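The genes described here build the sodium channels of neurons and anchor them at the axon initial segment. They are 9 of the 32285 genes in the deposited tables, chosen by name: the channel pore genes Scn1a, Scn2a, Scn3a and Scn8a, the beta subunit genes Scn2b and Scn3b, the channel binding factor gene Fgf13, and the scaffold genes Ank3 and Sptbn4. The study sequenced RNA of single nuclei from the amygdala's basolateral part (BLA), which links cues with threat or reward, of DISC1-N and wild-type (WT) C57BL/6J mice, to ask whether BLA cells are altered in DISC1-N mice. DISC1-N and WT each had 2 libraries, numbered replicate 1 and 2. Per the labels, all tissue was taken 6 h after tamoxifen was given to the mice of both genotypes, and the BLA of both sides from 5 mice were pooled for each group. The allele behind the name DISC1-N, the age of the mice and any carrier of a tamoxifen-driven recombinase are not stated in the labels. Nothing in the labels says that the 2 libraries of a genotype came from separate mice, so the p-values measure only the spread between libraries, which may be technical.

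Voltage-gated sodium channels open when the membrane depolarises and carry the rising phase of the action potential. The pore is 1 large alpha subunit with accessory beta subunits beside it, and the channels are packed at the axon initial segment, where action potentials start. There ankyrin-G, the product of Ank3, holds the channels, and beta-IV spectrin, the product of Sptbn4, ties ankyrin-G to the actin skeleton. Fgf13 encodes an intracellular fibroblast growth factor homologue that binds the tail of the alpha subunit and shifts channel inactivation.

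The alpha subunit genes resemble each other closely, which bears on how well reads can tell them apart. Scn1a (chr2:66270778-66440840, minus strand), Scn2a (chr2:65620771-65767447, plus strand) and Scn3a (chr2:65457118-65567627, minus strand) lie close together on mouse chromosome 2 (mm10). Of their distinct 91-base transcript stretches, 1.13% of Scn1a, 1.498% of Scn2a and 2.78% of Scn3a also occur in a transcript of another sodium channel gene of this cluster, and no such stretch was shared by Scn8a (chr15:100869858-101045938, plus strand). Fgf13 lies on the X chromosome (chrX:59062145-59568071, minus strand), Ank3 at chr10:69398773-70027438 and Sptbn4 at chr7:27356383-27447686. An antisense gene model overlaps Scn1a, Scn3a, Scn2b and Sptbn4.

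The 4 libraries held 27313 barcodes with 37840301 to 48439711 UMIs each (UMIs count RNA molecules), and 25332 nuclei passed the filters. Library pairs shared 5 to 21 barcodes. Nuclei were clustered without the 9 genes, so their levels did not shape the clusters, and 9 cell classes and 21 neuron subclusters were used, the subclusters named by leading genes; some of these, such as Drd2 and Prkcd, are known from the neighbouring central amygdala and striatum. The file headers give one Cell Ranger version for both replicate 1 libraries and another for both replicate 2 libraries, a processing batch balanced over genotype. Of 2267 nuclei left out in a cluster with a high doublet score, 1879 came from replicate 1 libraries. Disc1 had 14.8 and 11.9 CPM (UMI counts scaled to the same total in each class or subcluster of each library) in DISC1-N excitatory neurons, against 9.17 and 8.44 CPM in WT ones. Summed excitatory markers had 832 to 1106 CPM in the excitatory neurons and 343 to 504 CPM in inhibitory neurons, and summed inhibitory markers 943 to 1084 CPM in inhibitory neurons and 24.03 to 49.6 CPM in excitatory neurons.

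Among the alpha subunit genes, Scn1a, the channel gene whose loss causes a severe human epilepsy, was higher in inhibitory than in excitatory neurons in every library. It had 328 and 350.2 CPM in DISC1-N inhibitory neurons and 299.8 and 342 CPM in WT ones. Excitatory neurons held 250.2 and 262 CPM in DISC1-N and 242 and 266 CPM in WT libraries. The mean difference between the classes was 0.37 ± 0.05 on the log2 scale (SD, n = 4 libraries). Scn3a, best known from the embryonic brain, leaned the same way by 0.52 ± 0.10, and Scn8a, the main channel of the mature axon initial segment, leaned towards excitatory neurons, at -0.44 ± 0.07. Scn2a, an early and widespread channel of excitatory axons, differed by -0.05 ± 0.07, within its spread between libraries.

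Oligodendrocyte precursors, the glia that go on to form myelin cells, also held alpha subunit RNA. Scn3a had 175 and 203 CPM in DISC1-N precursors and 153 and 235 CPM in WT ones, a range that overlapped that of inhibitory neurons (166 and 194 CPM in DISC1-N, 165 and 202 CPM in WT). In astrocytes Scn3a had only 7.93 to 17.8 CPM. Scn3a in precursors was thus 106% to 142% of the neuronal mean, while 5 all-neuron genes used as a measure of free RNA (Rbfox3, Snap25, Syt1, Meg3 and Rbfox1) reached 6.45% to 47.2% there. Scn1a, at 52.9% to 76.6% of the neuronal mean, Scn2a, at 54.6% to 61.9%, and Scn8a, at 62.6% to 67.3%, were also above that range. Of the 5 genes, Rbfox1 had 33.35% to 36.25% in precursors and 1.79% to 8.94% in astrocytes. Whether the whole range in precursors is free RNA was not tested. After thinning each nucleus to 1000 UMIs, a Scn3a UMI was seen in 16.2% of DISC1-N and 19.1% of WT precursors, against 1.17% and 1.15% of astrocytes, whose median depth was close (1930 and 1846 UMIs, against 2090 and 2059 in precursors). Before thinning the shares were 33.0% and 33.6% of precursors and 2.09% and 1.83% of astrocytes, and 15 DISC1-N and 14 WT precursors and 27 DISC1-N and 40 WT astrocytes under 1000 UMIs were left out.

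The beta subunit genes differed in where they were found. Scn3b had 65.9 and 70.5 CPM in DISC1-N inhibitory neurons and 64.4 and 75.6 CPM in WT ones, above the 48.3 to 55.1 CPM of excitatory neurons. Its levels in glia with over 1000 nuclei stayed between 6.16 and 27.3 CPM. Scn2b was scarce, with 37.3 and 16.5 CPM in DISC1-N inhibitory neurons and 37.8 and 22.7 CPM in WT ones. Excitatory neurons had 24.2 and 12.8 CPM in DISC1-N and 30.4 and 14.6 CPM in WT libraries. Within each of the 4 libraries it was higher in inhibitory than in excitatory neurons, by 0.48 ± 0.17 on the log2 scale (SD, n = 4), although the ranges over libraries overlapped. Astrocytes had 12.3 to 35.3 CPM, a range that overlapped both neuronal classes, and microglia, at 20.2 to 79.6 CPM, reached the highest value. The microglial levels were 108.5% to 258.8% of the neuronal mean, against 3.50% to 58.4% for the 5 all-neuron genes. Microglial Scn2b was 2.99-fold higher in replicate 1 than in replicate 2 of DISC1-N and 2.83-fold in WT. The all-neuron genes summed to 3326 and 1270 CPM in DISC1-N microglia and 2742 and 1420 CPM in WT ones. Their part in the Scn2b values was not tested.

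Fgf13 crossed the border between neurons and glia. It had 414 and 542 CPM in DISC1-N inhibitory neurons and 357 and 522 CPM in WT ones. Microglia held 293 and 585 CPM in DISC1-N and 371 and 488 CPM in WT libraries, and astrocytes 311 and 448 CPM in DISC1-N and 336 and 371 CPM in WT libraries. These 3 classes overlapped, and all stood above excitatory neurons (71.2 to 109 CPM) and mature oligodendrocytes (20.7 to 46.4 CPM). After thinning to 1000 UMIs, 28.2% of DISC1-N and 27.0% of WT microglia had a Fgf13 UMI, against 2.75% and 2.43% of oligodendrocytes. Before thinning the shares were 29.96% and 28.0% in microglia and 3.69% and 3.77% in oligodendrocytes, at median depths of 1046 and 1064 UMIs and of 1339 and 1360 UMIs. Thinning left out 301 DISC1-N and 303 WT microglia and 183 DISC1-N and 203 WT oligodendrocytes.

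The scaffold genes split as well. Ank3 reached 1309 and 2345 CPM in DISC1-N oligodendrocytes and 1415 and 2140 CPM in WT ones, beside 1208 to 1603 CPM over both neuronal classes. Oligodendrocyte precursors had 673 to 810 CPM, and astrocytes 38.3 to 139 CPM. Sptbn4, in contrast, had 167.5 to 181 CPM in neurons of either kind and 9.03 to 45.1 CPM in oligodendrocytes. The neuronal classes differed by 0.03 ± 0.03 (log2, SD, n = 4).

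**Figure D1:**
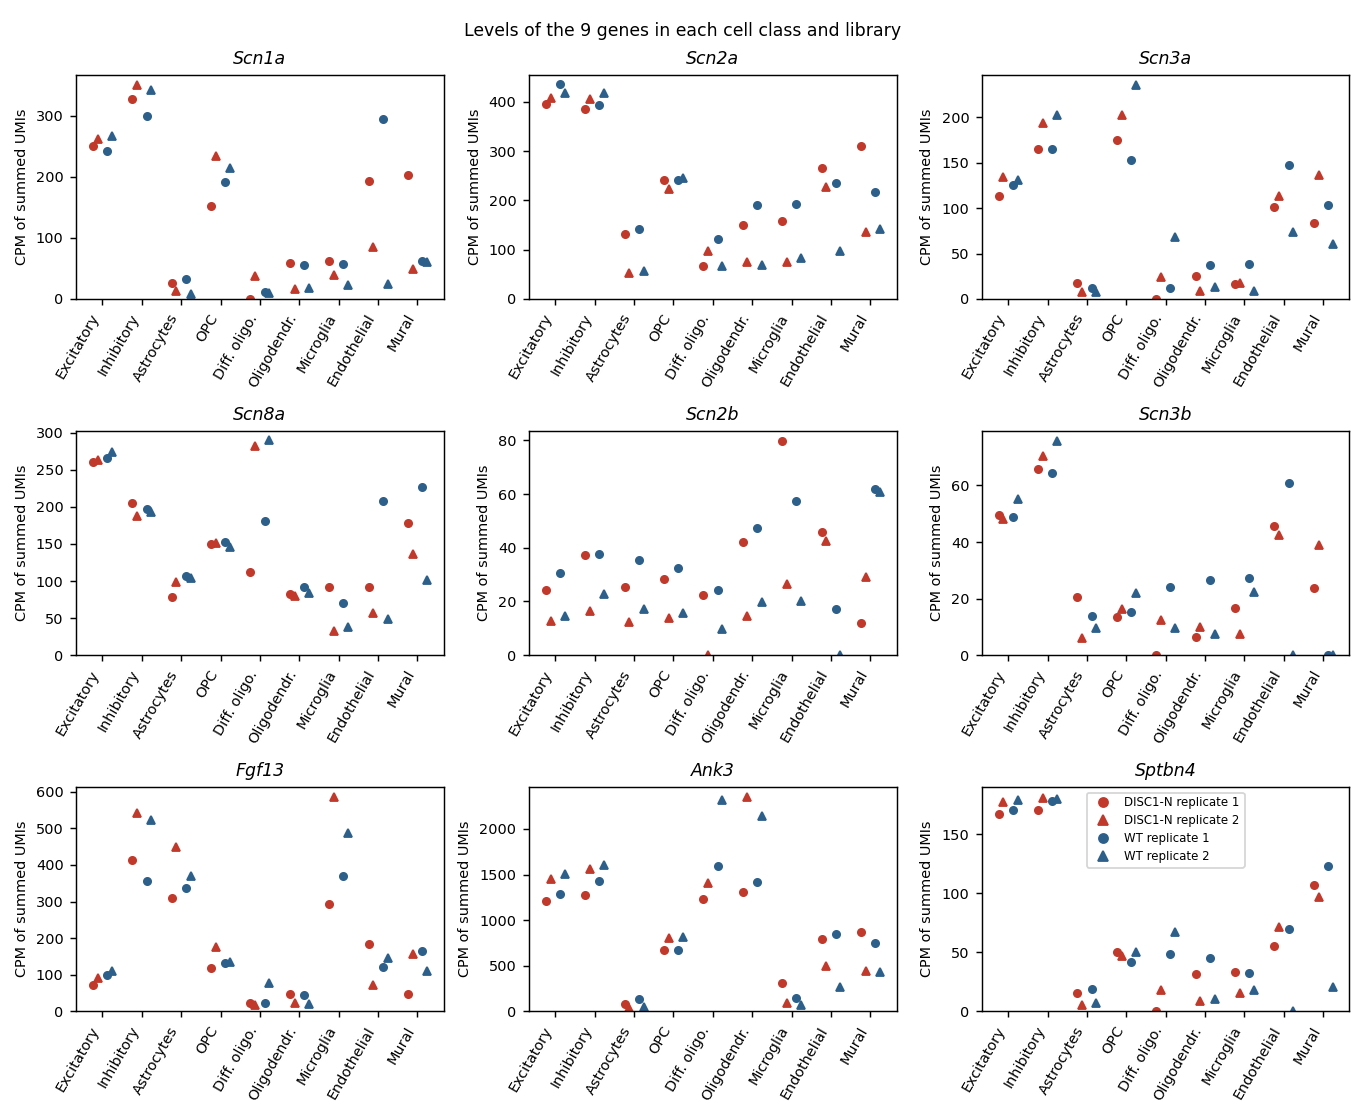
Level of each gene in 9 cell classes, in CPM of UMIs summed per class and library on a linear axis, with 1 point per library (DISC1-N red, WT blue, circles replicate 1, triangles replicate 2). Fgf13 is high in inhibitory neurons, astrocytes and microglia, Ank3 in neurons and oligodendrocytes, and Scn3a in inhibitory neurons and oligodendrocyte precursors (OPC); the endothelial, mural and differentiating oligodendrocyte points rest on 16 to 58 nuclei each.

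Within neurons, Fgf13 had the widest range. Its mean level over the 4 libraries differed 31.6-fold between the highest and the lowest of the 10 inhibitory subclusters and 6.09-fold among the 11 excitatory ones. The subcluster led by Kit and Ndnf, of which Ndnf is known from neurogliaform interneurons of the cortex, had 2782 and 3984 CPM in DISC1-N and 2809.8 and 3673 CPM in WT libraries. A Fgf13 UMI was seen after thinning in 92.3% of DISC1-N and 90.9% of WT nuclei there. The next subclusters, led by Vip and Crh, by Cobll1 and Reln and by Moxd1 and Crhbp, had 242 to 608 CPM. Of the 21 subclusters used, the Kit/Ndnf group was the only one whose 4 libraries all lay above all libraries of its neighbour in that order. Every other adjacent pair overlapped. A smaller inhibitory subcluster led by Hcrtr2 and Hapln1, with 95 nuclei, also had Fgf13 among its leading genes. It held only 10 nuclei in DISC1-N replicate 1, under the limit of 20, and was left out of this order. Among excitatory neurons the Rorb/Bmpr1b subcluster (222 to 239 CPM) and the Rfx3/Col12a1 subcluster (133 to 285 CPM) were highest, and the Rspo2/Col5a2 and Adamts2/Npsr1 subclusters, where Slc17a7, the cortical-type vesicular glutamate transporter gene, was highest, were lowest at 30.9 to 55.4 CPM.

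**Figure D2:**
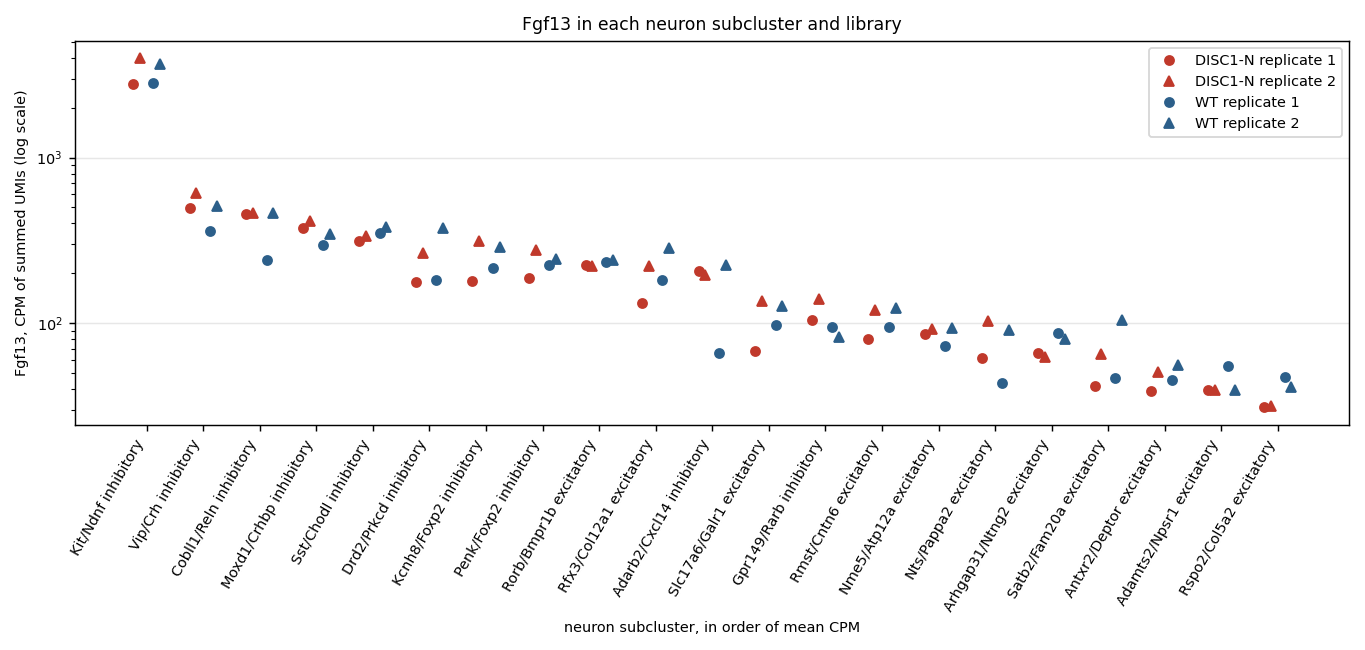
Fgf13 level in the 21 neuron subclusters, ordered by mean, in CPM on a log axis, with 1 point per library (DISC1-N red, WT blue, circles replicate 1, triangles replicate 2). The Kit/Ndnf inhibitory subcluster lies between 2782 and 3984 CPM, above all others, and the Rspo2/Col5a2 excitatory subcluster between 30.9 and 47.4 CPM.

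The order of the neuron subclusters differed between the alpha subunit genes. In the Moxd1/Crhbp subcluster Pvalb averaged 42.3 CPM, against at most 6.54 CPM in the other inhibitory subclusters. Sst averaged 650.4 CPM there (6355 CPM in Sst/Chodl), and neither was among the leading genes of Moxd1/Crhbp. Scn1a was highest by mean of all 21 subclusters in Moxd1/Crhbp (504 and 553.5 CPM in DISC1-N, 504 and 580.3 CPM in WT). Scn3a (63.2 and 105 CPM in DISC1-N, 83.6 and 80.8 CPM in WT) and Scn2a (333 and 353 CPM in DISC1-N, 359 and 360.3 CPM in WT) were lowest there by mean. Each of these overlapped its neighbour in the order. By mean, Scn3a was highest in the Gpr149/Rarb subcluster, rich in Foxp2 (239.3 CPM), which overlapped the Penk/Foxp2 subcluster next to it (239.1 CPM). Gpr149/Rarb had 216 and 245 CPM of Scn3a in DISC1-N and 206.5 and 290 CPM in WT libraries. It also had the lowest mean of Scn8a (131 to 169.6 CPM). Sptbn4 and Ank3 were also highest there by mean, at 225 to 264 CPM and 1613 to 1948 CPM. The 9 subclusters with the highest mean Scn8a were all excitatory (226 to 349 CPM), while the inhibitory ones had 126 to 258 CPM. The other excitatory subclusters, Nts/Pappa2 (206 to 259 CPM) and Slc17a6/Galr1 (141 to 216 CPM), lay among the inhibitory ones in the order. Scn2a differed only 1.45-fold between the highest and lowest excitatory subcluster and 1.39-fold among the inhibitory ones. The Antxr2/Deptor excitatory subcluster had the lowest Ank3 (580 to 830.5 CPM), below every library of the next subcluster in order, and by mean the highest Scn2a, Scn8a and Scn3b; it held only 25 to 63 nuclei per library.

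**Figure D3:**
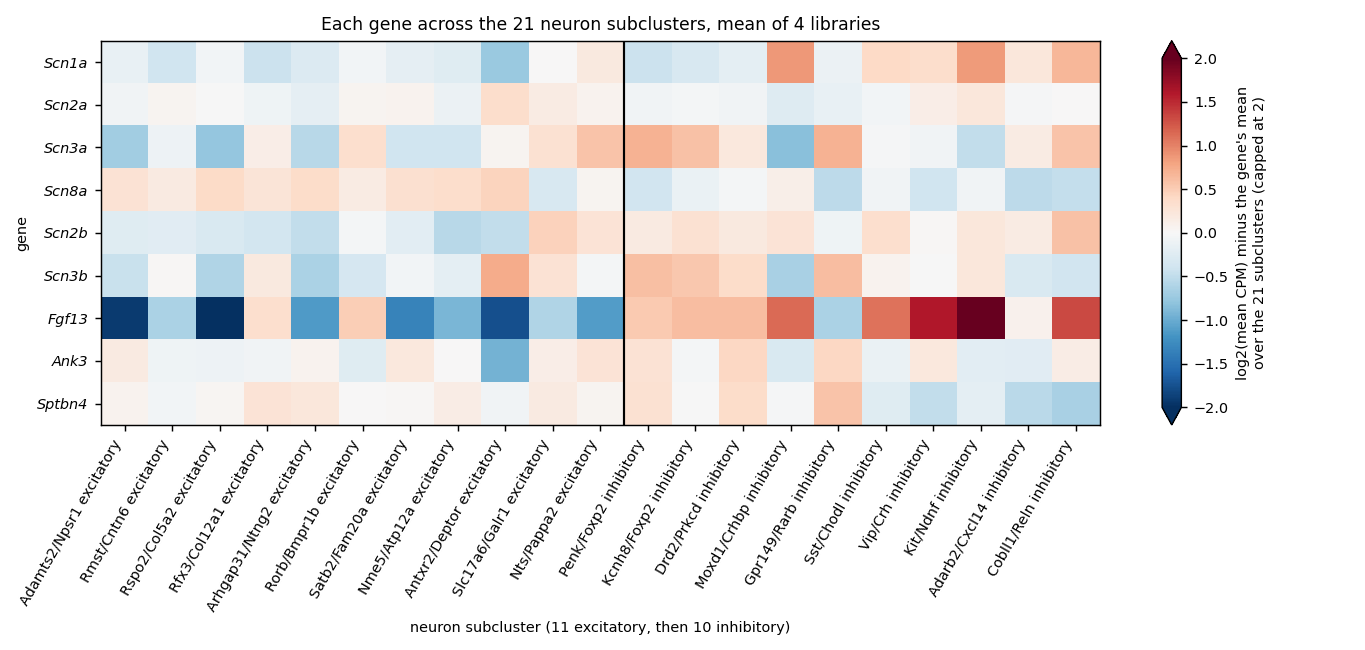
Heat map of the 9 genes (rows) over 21 neuron subclusters (columns, 11 excitatory left of the line and 10 inhibitory right of it), as log2 of the mean CPM of 4 libraries minus the mean of the row, capped at 2 units. Fgf13 spans the widest range, and Scn8a is above its mean in most excitatory subclusters. In the Moxd1/Crhbp subcluster Scn1a has its highest mean and Scn3a its lowest.

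Over the 21 subclusters Scn8a and Scn2b had the most opposed levels of any pair of the 9 genes (Pearson r = -0.66 across subcluster means), and Fgf13 and Scn1a the most alike (0.65), with Scn3a and Scn3b next (0.62). Among 6762 genes compared, Sptbn4 was most like Ryr1 (0.94), a calcium release channel gene, Scn1a most like Stambpl1 (0.90), and Scn8a most like Kcnma1 (0.90), a calcium-activated potassium channel gene. Ank3 was most like Carm1 (0.90), and Fgf13 had an r of 0.85 with Gdap1. The subclusters share their libraries and differ in depth, so these values describe likeness only.

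In the comparison of genotypes, Fgf13 in excitatory neurons was the only one of the 9 genes called in the sums over all nuclei of any class, and only when the replicate number was taken as a block. Fgf13 had 71.2 and 92.2 CPM in DISC1-N excitatory neurons, against 98.3 and 109 CPM in WT ones. Both DISC1-N libraries were below both WT libraries, as held for 9.85% of the 16304 genes tested. The level was 27.5% lower within replicate 1 and 15.3% lower within replicate 2. edgeR's quasi-likelihood test without a block gave a log2 difference of -0.33 ± 0.20 (SE) and an adjusted p of 1.00, and it called none of the 16304 genes. In a fit blocked on replicate number the difference was -0.33 ± 0.07 (adjusted p = 0.0211 in edgeR), and 0.871% of the genes were called, 0.583% as lower. That fit has 1 residual degree of freedom. Without the block, the difference was -0.11 with DISC1-N replicate 1 left out, -0.19 with WT replicate 2 left out and -0.58 with DISC1-N replicate 2 left out.

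Of 62 tests of the 9 genes over 8 cell classes, edgeR called 0 without the block (0 at an unadjusted p under 0.05, and 0 called by DESeq2) and 1 with it, that of Fgf13. Over all genes in these classes 0.22% of tests were called with the block and 0.0% without it. An unadjusted p under 0.05 was reached by 0 of the 62 tests without the block, beside 0.666% of all tests, and by 4 with it, beside 6.79%. Scn2a had 396 and 408 CPM in DISC1-N and 436 and 419 CPM in WT excitatory neurons, with both DISC1-N libraries the lower, but its blocked difference was -0.08 ± 0.06 (adjusted p = 0.846 in edgeR). Scn8a, with 260.0 and 263 CPM in DISC1-N and 266 and 274 CPM in WT, also did not overlap and differed by -0.03 ± 0.06. Scn2b had 24.2 and 12.8 CPM in DISC1-N excitatory neurons, against 30.4 and 14.6 CPM in WT ones. It was 20.4% and 12.2% lower within the replicate numbers, but the blocked value of -0.25 ± 0.12 was not called (adjusted p = 0.510 in edgeR). Ank3, Sptbn4, Scn1a, Scn3a and Scn3b had blocked differences between -0.08 and 0.02 in excitatory neurons.

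Several values are set beside the Fgf13 difference here, and their part in it was not tested. The Fgf13-rich Rfx3/Col12a1 and Rorb/Bmpr1b subclusters made up 8.17% and 6.74% of the excitatory UMIs of DISC1-N replicate 1, those of WT replicate 1 being 12.4% and 9.90%. They made up 10.4% and 6.34% of DISC1-N replicate 2 and 10.6% and 5.63% of WT replicate 2. With every subcluster given the same weight in all libraries, the log2 difference of Fgf13 was -0.29 within replicate 1 and -0.20 within replicate 2, where the same nuclei had -0.46 and -0.23. Within single subclusters, Fgf13 was lower in DISC1-N within both replicate numbers in 8 of 11 excitatory subclusters and higher within both in 1. Among the 8, Adamts2/Npsr1 was only 0.19% lower within replicate 2. The subclusters share their libraries, so they are not independent counts. In the sums over all excitatory neurons, 30% of all genes were lower within both numbers and 23.8% higher. The share of genes lower in as many subclusters was not computed. The Rfx3/Col12a1 subcluster had 133 and 222 CPM in DISC1-N and 181 and 285 CPM in WT libraries, and its blocked adjusted p of 0.256 in edgeR was the lowest for Fgf13 in any subcluster. None of the 185 subcluster tests of the 9 genes was called in either fit (DESeq2 called 0), beside 0.00055% of all subcluster tests without the block and 0.179% with it. An unadjusted p under 0.05 was reached by 1 without the block, beside 1.42% of all tests, and by 11 with it, beside 5.55%. Summed inhibitory markers in the excitatory neurons were 39.3 and 24.03 CPM in DISC1-N, against 49.6 and 33.9 CPM in WT libraries. In alternatives added after seeing the data, without the Slc17a6-type subclusters the adjusted p with the block was 0.0577, and with the cluster of high doublet score added it was 0.160 at a difference of -0.25 ± 0.07. That cluster held both glutamate (176 CPM) and GABA (122.3 CPM) transmitter markers and 7 detected oligodendrocyte markers.

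**Figure D4:**
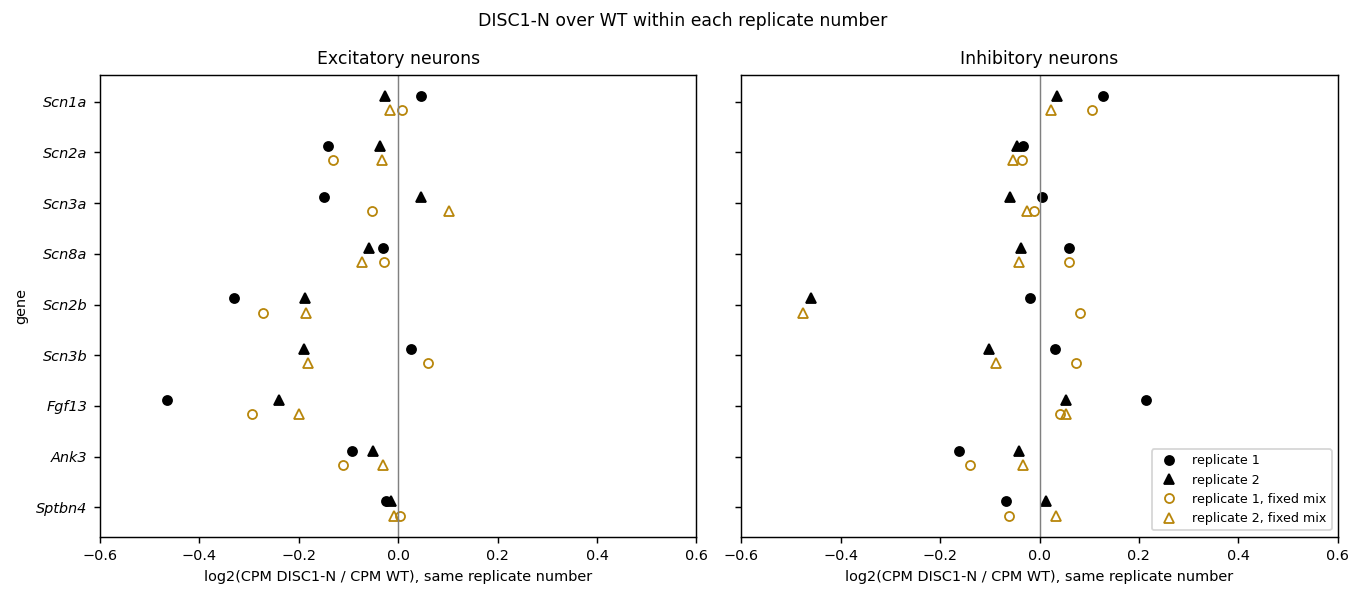
Difference between DISC1-N and WT within each replicate number, as log2 of the CPM ratio, for the 9 genes in excitatory (left) and inhibitory (right) neurons; filled symbols are the sums over all nuclei of the class and open symbols the levels at a fixed mix of subclusters, with circles for replicate 1 and triangles for replicate 2. Fgf13 lies at -0.46 and -0.24 in excitatory neurons and at 0.21 and 0.05 in inhibitory neurons. There the fixed mix, over the nuclei of the 10 subclusters only, gives 0.04 and 0.05, and the same nuclei without it 0.24 and 0.08.

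In inhibitory neurons none of the 9 genes was called in either fit, beside 0.0913% of 15341 genes called with the block. Fgf13 was 16.02% higher in DISC1-N within replicate 1 and 3.81% higher within replicate 2, with overlapping groups and a blocked difference of 0.14 ± 0.07 (adjusted p = 0.704 in edgeR). The Kit/Ndnf subcluster gave 5.44% of the inhibitory UMIs of DISC1-N replicate 1 and 3.73% of those of WT replicate 1. In replicate 2 the shares were 4.45% in DISC1-N and 4.23% in WT. At a fixed mix of subclusters the log2 differences of Fgf13 were 0.04 and 0.05, where the same nuclei had 0.24 and 0.08. In the Kit/Ndnf subcluster itself the Fgf13 levels overlapped. Scn1a was 9.30% and 2.45% higher within the replicate numbers, with a blocked value of 0.09 ± 0.07. Scn2b was 1.36% and 27.3% lower. The test of whether the genotype difference itself differed between excitatory and inhibitory neurons called 0 of 16628 genes in edgeR (520 had an unadjusted p under 0.05, or 3.13%). Fgf13 had a difference between the classes of -0.47 ± 0.11 on the log2 scale, an unadjusted p of 0.000715 and an adjusted p of 1.00.

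In glia and vascular cells none of the 9 genes was called, beside 0.051% of genes called with the block in astrocytes, 0.0187% in precursors, 0.0497% in oligodendrocytes and 0.0% in microglia, endothelial and mural cells. Ank3 in microglia had 310 and 94.9 CPM in DISC1-N, against 147 and 65.3 CPM in WT libraries, a blocked difference of 0.88 ± 0.25 (adjusted p = 0.552 in edgeR). These levels rest on 29 to 74 UMIs per library, and with DISC1-N replicate 1 left out the unblocked difference was -0.12. Oligodendrocyte markers summed to 607 and 211 CPM in DISC1-N microglia and 335 and 241 CPM in WT microglia. In the 43 to 138 microglia per library with at least 1000 genes, Ank3 had 505 and 162.5 CPM in DISC1-N and 108 and 58.3 CPM in WT libraries. Without the block the difference there was 1.93 ± 0.64 (adjusted p = 0.9999 in edgeR). With the block, an alternative added after seeing the data, it was 2.12 ± 0.38 (adjusted p = 0.00476 in edgeR), on 4 UMIs in WT replicate 2. The share of all microglial genes called in that blocked fit is not reported here. Oligodendrocyte markers in these nuclei summed to 1096 and 449 CPM in DISC1-N and 301 and 262 CPM in WT libraries. Their part in the result was not tested. In astrocytes Ank3 had 81.6 and 38.3 CPM in DISC1-N and 139 and 48.6 CPM in WT libraries, with a blocked value of -0.53 ± 0.18 (adjusted p = 0.321 in edgeR). The 5 all-neuron genes summed to 1462 and 584 CPM in DISC1-N astrocytes and 1919 and 637 CPM in WT ones; their part in the Ank3 values was not tested.

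The replicate number moved Scn2b and Ank3 in excitatory neurons more than the genotype did. Scn2b in excitatory neurons was 1.89-fold higher in replicate 1 than in replicate 2 of DISC1-N and 2.08-fold in WT, and in astrocytes 2.07-fold and 2.06-fold. In excitatory neurons the ratio of replicate 1 to replicate 2 was 0.83 in DISC1-N and 0.855 in WT for Ank3. For Fgf13 it was 0.772 in DISC1-N and 0.903 in WT, beside levels 27.5% and 15.3% lower in DISC1-N within replicates 1 and 2. These sizes overlapped. In inhibitory neurons the Fgf13 ratio was 0.764 in DISC1-N and 0.684 in WT, beside levels 16.02% and 3.81% higher in DISC1-N. Across all 16304 genes of excitatory neurons the deviations of same-numbered libraries from their genotype means correlated at 0.637 over genes, which are not independent.

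Another 39 genes of sodium channels and the axon initial segment were read from the same fits. They include other channel subunits, neurofascin and its partners, microtubule anchors, potassium channels of the segment and the kinases CK2 and GSK3. Of the 35 tested in excitatory neurons and the 37 tested in inhibitory neurons, 0 were called in either direction in either fit. Their median blocked difference was -0.03 in excitatory and -0.04 in inhibitory neurons, beside -0.06 and -0.02 for the 9 genes and -0.00354 and -0.00477 for all genes tested. Kcna2, a potassium channel gene of the initial segment, had the lowest p in excitatory neurons, with 24.9 and 20.5 CPM in DISC1-N and 29.98 and 25.4 CPM in WT libraries (blocked difference -0.28 ± 0.10, adjusted p = 0.331 in edgeR). Csnk2b, a CK2 subunit gene, had 16.9 and 15.98 CPM in DISC1-N and 14.9 and 14.2 CPM in WT. In inhibitory neurons the lowest p was that of Trim46, which bundles microtubules at the initial segment, with 61.2 and 65.0 CPM in DISC1-N and 69.9 and 74.4 CPM in WT libraries (-0.18 ± 0.08, adjusted p = 0.695 in edgeR). L1cam, an adhesion molecule gene, had 35.3 and 46.4 CPM in DISC1-N and 38.3 and 55.7 CPM in WT, and Scn4b had 1.42 and 0.575 CPM in DISC1-N and 4.13 and 0.495 CPM in WT.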

How the data were processed

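The authors deposited raw UMI counts for each gene and barcode (10x 3' v3 nuclei), made with Cell Ranger and mm10 per the submitters' processing notes and not normalized. Per the file headers, the replicate 1 libraries used Cell Ranger 7.0.0 and those of replicate 2 used 6.0.2; the notes give 7.0.0. Whether introns were counted is not given in the sources used here. The 9 genes, the lists and the tests were chosen with earlier results of these data known.

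The filters were a minimum of 500 genes and a maximum of 5% mitochondrial UMIs; then the top-scoring 0.8% per 1000 nuclei of each library by Scrublet were removed, and clusters were made in scanpy 1.11.5 and leidenalg 0.10.2 (2000 variable genes, 30 components, 15 neighbours, resolution 0.5), without the 9 genes, the 39 listed ones and sex-linked and mitochondrial genes. Classes came from fixed markers (at least 3 detected); a limit of 0.1 on a cluster's median doublet score was set after seeing the data. Subclusters bear the names of leading genes.

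Counts were summed per class or subcluster and library (at least 20 nuclei each; differentiating oligodendrocytes, with 16 nuclei in 1 library, were not tested) and tested in edgeR 4.0.16 in R 4.3.3 (quasi-likelihood, TMM, filterByExpr at 10), with Benjamini-Hochberg adjustment over all genes and calls at an adjusted p under 0.05. DESeq2 1.42.0 was an alternative. The interaction of class and genotype was fitted with library as a block. The fit without a block was the main one, and the replicate number as a block was an alternative. The labels do not say what the number marks, and the file headers give a different Cell Ranger version for each number. The tests were tried on simulated data. IDs were matched to GENCODE vM21 (32235 of 32285). Named were the 9 genes, listed genes past the threshold, the 3 listed genes of lowest blocked p in each neuronal class, and for likeness the genes of highest Pearson r, of which 1 is printed for some; some items under this rule are not reported here.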

Additional observations from a re-analysis of the deposited data

Results flagged for a closer look

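The genotype difference of Fgf13 pointed in opposite directions in the neuronal classes: it was lower in DISC1-N excitatory neurons within both replicate numbers and higher in DISC1-N inhibitory neurons within both. The difference between the classes was -0.47 on the log2 scale and did not pass edgeR's test after adjustment over all genes (adjusted p = 1.00). At a fixed mix of subclusters the inhibitory side was 0.04 and 0.05, where the same nuclei had 0.24 and 0.08.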

How the results depend on the processing

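Without the block, the count of the 9 genes called over cell classes stayed at 0 under DESeq2 size factors, DESeq2, no filter, at least 1000 genes, at most 1% mitochondrial UMIs, own-marker nuclei, thinned sums and each left-out library. With the replicate block it was 1 in the plain fit and with DESeq2 size factors, at most 1% mitochondrial UMIs, no filter, own-marker nuclei or thinned sums, 2 with at least 1000 genes (Fgf13 and microglial Ank3), and 0 with the high-doublet cluster or without the Slc17a6-type subclusters; those settings beside the plain block were added after seeing the data, and the cause was not tested. Subcluster and other-list counts stayed at 0 in both fits. The comparison between neuronal classes called 1 of the 9 genes with no filter (Fgf13, -0.50, adjusted p = 0.00157 in edgeR, against 0.654 to 1.00 under its other settings). How many of all genes were called with no filter is not reported here, and the 0 of 16628 given above is from the filtered fit. The Fgf13 difference in excitatory neurons stayed negative in every setting, from -0.58 to -0.11 when a library was left out.

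All genes called in excitatory neurons numbered 0, with 19 with no filter, 1 to 18 with a library left out, and, with the replicate block, 142 (DESeq2 size factors 268, at least 1000 genes 250, 1% mitochondrial 255, no filter 231, own-marker nuclei 163, thinned 219, with the high-doublet cluster 85, without the Slc17a6-type subclusters 51). In inhibitory neurons they numbered 0, with 1 to 9 with a library left out and, with the block, 14 (DESeq2 size factors 12, at least 1000 genes 11, 1% mitochondrial 15, no filter 128, own-marker nuclei 98, thinned 0).

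Leaving out a library turned the sign of uncalled differences. In excitatory neurons the ranges were -0.25 to 0.12 for Ank3, -0.10 to 0.15 for Scn1a, -0.73 to 0.27 for Scn2b, -0.21 to 0.13 for Scn3a, -0.21 to 0.071 for Scn3b, -0.10 to 0.044 for Scn8a and -0.10 to 0.086 for Sptbn4. In inhibitory neurons they were -0.28 to 0.10 for Ank3, -0.15 to 0.49 for Fgf13, -0.045 to 0.25 for Scn1a, -0.12 to 0.074 for Scn2a, -0.79 to 0.29 for Scn2b, -0.20 to 0.20 for Scn3a, -0.18 to 0.15 for Scn3b, -0.00854 to 0.061 for Scn8a and -0.11 to 0.075 for Sptbn4. Other sign changes, also of uncalled values, were Scn1a in excitatory neurons with the high-doublet cluster (-0.040, with the block -0.044), Scn8a and Sptbn4 there in own-marker nuclei (0.022 and 0.0354; with the block 0.023 and 0.0351), Sptbn4 there without the Slc17a6-type subclusters (0.00146 and 0.00149), Scn3a and Sptbn4 in inhibitory neurons with thinned sums (0.017 and 0.00946; with the block 0.021 and 0.00736), and Sptbn4 between classes (-0.00662 with DESeq2 size factors, -0.013 with no filter). The inhibitory over excitatory level of Fgf13, 2.30 in log2, was 2.15 as a mean over nuclei and 1.60 as a thinned share. Scn2b, at 12.8 to 30.4 CPM in excitatory neurons, and classes of under 200 nuclei are limited by depth.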
